A study of Danio rerio with 10 samples.

Results

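The comparison of 1000-cell with 256-cell zebrafish embryos spans the interval in which the embryo begins to transcribe its own genome in quantity. Its members are 4 of the 10 libraries of the series and the 7444 of 16383 transcripts that had 10 or more counts in 2 or more of these 4 libraries. Wild-type embryos of the AB strain (Danio rerio) were pooled at each stage, freed of the chorion and lysed in a buffer that leaves nuclei whole. The pellet was kept as the nuclear fraction and the supernatant as the cytosolic fraction. The groups were the nuclear and the cytosolic fraction at 1000-cell and the same 2 fractions at 256-cell, with 1 library each and no treatment or genetic change in any of them. With 1 library per fraction and stage, the 2 fractions stood in for replicates of a stage, and p-values measure only the spread between these libraries. That spread includes any difference between the fractions in how a level changed from 256-cell to 1000-cell. The 64-cell, dome and shield libraries of the series were used to follow the same transcripts before and after.

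A zebrafish egg carries a large store of maternal RNA, and the first cleavages run on that store. Transcription from the embryo's genome becomes widespread around the mid-blastula transition, near the 1000-cell stage, with a small number of genes active earlier. A newly made RNA is present in the nucleus before it is exported, while maternal RNA lies mostly in the cytoplasm. A nuclear library could therefore in principle show new transcripts against a lower background. The comparison therefore asks 2 things: which transcripts were higher at 1000-cell than at 256-cell, and whether newly seen transcripts were seen first in the nuclear library.

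The values are whole-number counts per Ensembl transcript, as deposited. Total counts at 1000-cell were 7662026 nuclear and 11715817 cytosolic, against 7010646 and 9445461 at 256-cell. Levels are given as CPM, a transcript's counts scaled to a common library total, and in these 4 libraries 3 counts corresponded to 0.256 to 0.428 CPM. Transcripts are called seen at 10 or more counts and not seen at 2 or fewer. The deposited table does not pair transcripts with genes, and 0 of its IDs matched the gene tables used for names, so the purity of the fractions could not be checked with nuclear or cytosolic marker RNAs. A level is a share of a library's counts. In such bulk fractions, fewer cells that contain an RNA and less of it per cell cannot be told apart, and a nuclear/cytosolic ratio does not give how molecules were divided between the compartments.

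Most of the transcripts found at one stage were also found at the other. Of the 16383 transcripts, 6002 were seen in all 4 libraries, 768 in 3, 674 in 2, 935 in 1 and 8004 in none. Transcripts seen in both 1000-cell libraries and in neither at 256-cell numbered 179, and the opposite pattern was found for 111. Among the 935 seen in a single library, 242 were nuclear and 280 cytosolic at 1000-cell, against 194 and 219 at 256-cell. These 935 did not enter the tests. After the 4 libraries were thinned to 1 depth, the nuclear library held 7009 seen transcripts and the cytosolic library 6843 at 1000-cell, against 6976 and 6818 at 256-cell. The median level of the 7444 tested transcripts was 23.8 CPM nuclear and 23.6 CPM cytosolic at 1000-cell, against 23.0 and 21.9 CPM at 256-cell. By these measures the nuclear libraries showed no lower background than the cytosolic ones.

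No transcript passed the threshold for a difference between 1000-cell and 256-cell with fraction as a block, 0 of 7444 (0%), in edgeR's quasi-likelihood test. The smallest adjusted p-value was 0.525. An unadjusted p-value under 0.05 was found for 705 transcripts (9.47%), of which 339 were higher and 366 lower at 1000-cell. This fit has 1 residual degree of freedom. DESeq2 with the same design called 174 transcripts, 84 higher and 90 lower at 1000-cell, and gave no adjusted p-value for 433. Of these 84 and 90, 78 (92.9%) and 86 (95.6%) had 10 or more counts in a 64-cell library, near the 95.7% of all tested transcripts.

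Within the fractions, the numbers of higher and lower transcripts were near each other. In the nuclear libraries 843 transcripts were 2-fold or more higher at 1000-cell (11.3%) and 785 were 2-fold or more lower (10.5%). In the cytosolic libraries 757 were higher (10.2%) and 749 lower (10.1%). The ratios used TMM-scaled CPM with a prior count of 2. In both fractions 277 were higher (3.72%) and 260 lower (3.49%), while 109 had a higher nuclear and a lower cytosolic level and 114 the reverse. The nuclear log2 ratio had a median of -0.0034 and an SD over transcripts of 1.46, and the cytosolic one a median of 0.0088 and an SD of 1.28. Across the 7444 transcripts, which are not independent replicates, the 2 log2 ratios correlated at Pearson's r = 0.246 (Spearman's rho 0.300).

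The abundant transcripts varied least. Among the 1983 transcripts with a mean of 1000 or more counts over the 4 libraries, the nuclear level was past 2-fold for 4.39% and the cytosolic level for 4.89%. Among the 2088 with a mean under 50 counts these shares were 42.8% and 39.9%. The 277 transcripts higher in both fractions had median levels of 7.44 CPM nuclear and 4.95 CPM cytosolic at 1000-cell, against 0.998 and 0.741 CPM at 256-cell. Their medians at 64-cell, a stage the choice did not use, were 2.38 CPM nuclear and 2.86 CPM cytosolic, above those at 256-cell. The choice favours low 256-cell values, and the 260 transcripts lower in both fractions showed the mirror image. Their medians were 3.09 CPM nuclear and 3.53 CPM cytosolic at 64-cell, against 7.70 and 6.56 CPM at 256-cell. The nuclear 64-cell library held 179 of the 277 as seen (64.6%) and the cytosolic one 207 (74.7%), beside 88.9% and 93.8% of all tested transcripts, whose levels were higher. Most of the 277 had thus been seen at 64-cell, as had most of the tested transcripts.

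**Figure D1:**
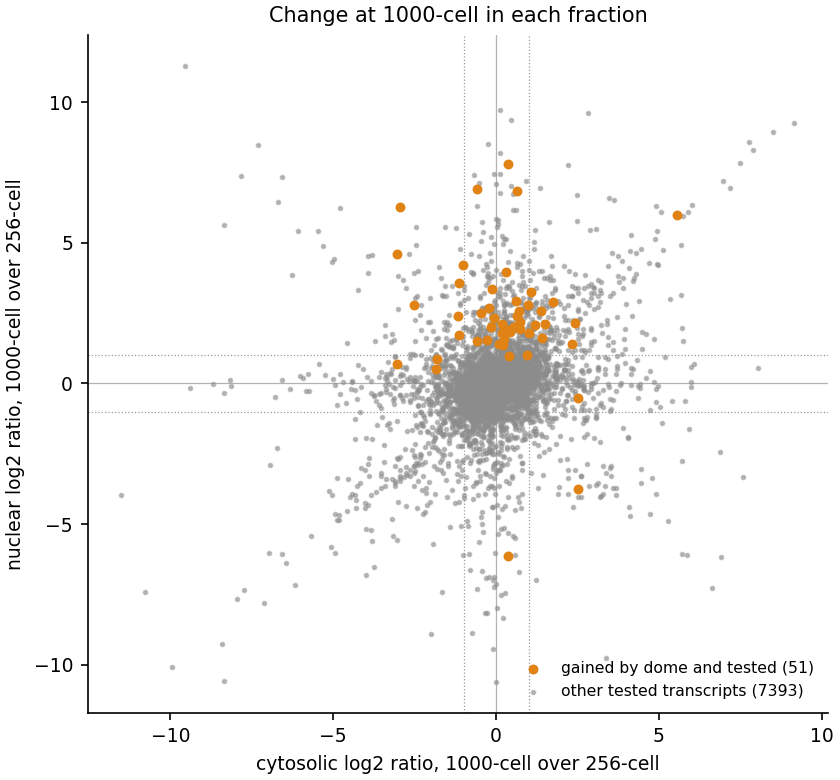
Log2 ratio of 1000-cell over 256-cell in the nuclear libraries (vertical axis) against the same ratio in the cytosolic libraries (horizontal axis), 1 point per tested transcript (7444). Dotted lines mark 2-fold. Orange points are the 51 tested transcripts of the set gained by dome (100 or more counts in both dome libraries, 2 or fewer in both 64-cell ones). Most of them lie above the upper 2-fold line of the nuclear axis, while on the cytosolic axis they spread to both sides of 0.

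The most abundant transcript at 256-cell was the leading exception among abundant RNAs. It had 15081 nuclear and 22448 cytosolic counts at 1000-cell, or 1968 and 1916 CPM, against 204186 and 371187 counts at 256-cell, or 29125.1 and 39297.9 CPM. A second transcript had 331 CPM nuclear and 305 CPM cytosolic at 1000-cell, against 5038 and 5877 CPM at 256-cell. Their log2 fold changes were -4.19 (SE 0.25) and -4.16 (SE 0.17), and the edgeR test gave each an adjusted p-value of 0.525. These 2 were chosen after their values were seen. They were the ones past 2-fold in either fraction among the 20 transcripts that ranked in the 10 most abundant of any of the 4 libraries. Both were also high in the cytosolic shield library, with 49306.9 and 7284 CPM, and lower in both dome libraries, with 2292 and 468 CPM nuclear and 5229 and 777 CPM cytosolic. In the nuclear shield library they had 4836 and 619 CPM. Their levels thus went up and down between stages, with high values in both fractions at 256-cell and in the cytosolic fraction at shield.

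Newly seen transcripts were not found mainly in the nuclear library. Of the 7433 transcripts not seen in either 256-cell library, 311 were seen in at least 1 of the 1000-cell libraries (4.18%). Of these, 88 were seen in the nuclear library only, 100 in the cytosolic library only and 68 in both, and 55 had 10 or more counts in one and 3 to 9 in the other. In all, the nuclear library held 185 and the cytosolic library, the deeper of the 2, 194. The summed level of the 311 was 2504 CPM nuclear and 3723 CPM cytosolic at 1000-cell. With the 4 libraries thinned to 1 depth, 88 were nuclear only, 72 cytosolic only and 52 in both, so the order of the first 2 classes turned with depth. The filter on 2 libraries kept the 68 seen in both and none of the others, which is why the count was made on the whole table.

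The mirror image was of similar size. Of the 7231 transcripts not seen at 1000-cell, 283 were seen at 256-cell, 112 of them in the nuclear library only, 72 in the cytosolic library only and 50 in both. Nearly as many transcripts were thus lost from view as came into view. The steps on either side differed from this one in their counts. From 64-cell to 256-cell 286 were newly seen, 122 nuclear only and 63 cytosolic only. From 1000-cell to dome 917 were newly seen, 333 nuclear only, 65 cytosolic only and 308 in both. From dome to shield the numbers were 514, 215, 67 and 156. These step counts were not thinned to 1 depth. The dome libraries held 13285467 nuclear and 11590909 cytosolic counts, and the shield libraries 5909037 and 7990172. The nuclear library was thus the deeper one at dome and the shallower one at the other stages. The part of depth in these numbers was not tested. Neighbouring steps share libraries, and no test of a difference between steps can be made with 1 library per fraction and stage.

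**Figure D2:**
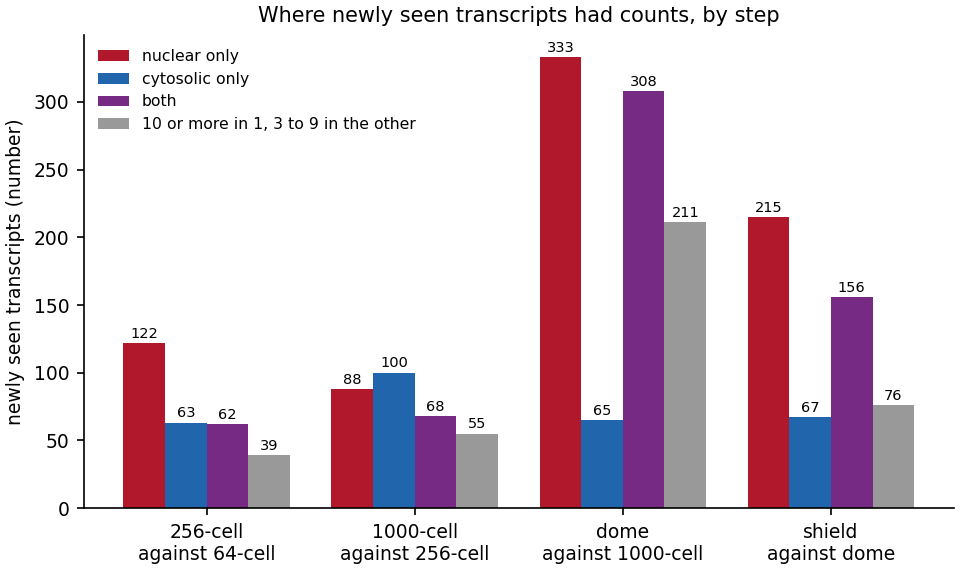
Number of transcripts with 2 or fewer counts in both libraries of the earlier stage and 10 or more in at least 1 library of the later stage, for each step of the series in order. Bars split them by the library in which they were seen. At 1000-cell the nuclear-only and cytosolic-only bars stand at 88 and 100, and at dome at 333 and 65. Libraries were not thinned to 1 depth, and the nuclear library was the deeper of the pair at dome only.

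Many newly seen transcripts had been seen at 64-cell. Of the 311, 133 (42.8%) had 10 or more counts in a 64-cell library, as had 120 of the 283 no longer seen (42.4%). When transcripts seen with 3 or more counts at 64-cell were also left out, 135 newly seen transcripts remained. Of these, 63 were seen in the nuclear library only, 44 in the cytosolic library only and 12 in both. The other 16 had 10 or more nuclear and 3 to 9 cytosolic counts, and none had the reverse. In this narrower class the nuclear library thus held 91 and the cytosolic library 56. The summed level had the opposite order, 859 CPM nuclear against 2253 CPM cytosolic. One transcript held 8377 of the 26395 cytosolic counts. Most counts were low, with a median of 21 in the library where each was higher and 63 of the 135 under 20. The mirror class, no longer seen and also not seen at dome, held 120 transcripts. Of these, 48 had been seen in the 256-cell nuclear library only, 35 in the cytosolic library only and 22 in both. The 256-cell nuclear library held 75 of the mirror class and the cytosolic library 67. Nuclear-only transcripts thus outnumbered cytosolic-only ones in both directions, and the difference between the directions was not tested.

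The dome and shield libraries, which the classes did not use, gave a further description. In the nuclear dome library 49 of the 88 nuclear-only transcripts were seen (55.7%) and 47 of the 100 cytosolic-only ones (47%). In the cytosolic dome library the numbers were 42 of 88 (47.7%) and 26 of 100 (26%). Of 6552 transcripts not seen in any of the 4 libraries, the nuclear dome library held 617 and the cytosolic one 280. At 64-cell 8 of the 88 nuclear-only transcripts were seen in the nuclear library and 15 of 88 in the cytosolic one, beside 24 and 32 of the 100 cytosolic-only transcripts. These are descriptions of transcripts in single libraries, and the differences between the classes were not tested.

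**Figure D3:**
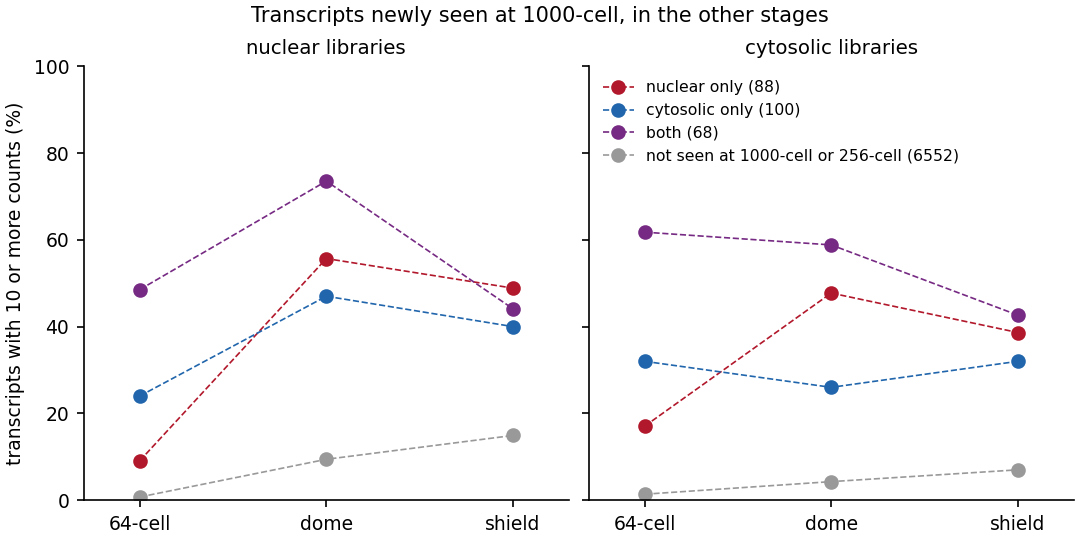
Percentage of transcripts with 10 or more counts in the 64-cell, dome and shield libraries, nuclear on the left and cytosolic on the right, for transcripts newly seen at 1000-cell in the nuclear library only (88), the cytosolic library only (100) or both (68), and for the 6552 not seen at 1000-cell or 256-cell. Dashed lines join the points of a class and skip the 2 stages that defined it. At dome 55.7% of the nuclear-only and 47% of the cytosolic-only class were seen in the nuclear library.

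The highest counts among newly and no longer seen transcripts came with abrupt zeros. ENSDART00000151213, the newly seen nuclear-only transcript with the highest count, had 3738 nuclear and 0 cytosolic counts at 1000-cell, against 0 and 0 at 256-cell. Against a floor of 3 counts per library its nuclear level at 1000-cell was at least 1140-fold higher. It also had 0 nuclear and 5942 cytosolic counts at 64-cell, 4229 and 3813 at dome, and 0 in both at shield. Its counts thus switched between high values and 0 without following stage or fraction.

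ENSDART00000087247, the most abundant transcript newly seen in both fractions, had 1037 nuclear and 1560 cytosolic counts at 1000-cell, against 0 and 0 at 256-cell, at least 316-fold and 419-fold higher. Its edgeR adjusted p-value was 0.525. At 64-cell it had 1443 and 1922 counts, at dome 2168 and 1272, and at shield 1244 and 1447. It was therefore missing at 256-cell alone, and present in the other 8 libraries.

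ENSDART00000135496, the most abundant transcript no longer seen in either fraction, had 0 counts in both 1000-cell libraries, against 1630 nuclear and 2046 cytosolic counts at 256-cell, at least 594-fold and 846-fold lower. Its edgeR adjusted p-value was 0.525. It had 1783 and 2300 counts at 64-cell, 0 and 0 at dome, and 110 and 2948 at shield. ENSDART00000125178, the no longer seen nuclear-only transcript with the highest count, had 0 counts in both libraries at 1000-cell, against 1746 nuclear and 0 cytosolic counts at 256-cell. Its only other counts were 4342 in the cytosolic shield library. How reads were divided among transcripts of a gene is not given in the sources used here, and its part in such zeros was not tested.

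A class chosen on other libraries gave a different picture. Transcripts with 2 or fewer counts in both 64-cell libraries and 100 or more in both dome libraries, 106 in all, are called gained by dome. Their choice used no 256-cell or 1000-cell value, so that where they were seen first is open to description. It did require low counts at 64-cell and high counts at dome, which favours a rise from 256-cell to 1000-cell in either fraction. The class was set up after the newly seen counts above were known. It shares 10 transcripts with the 311 newly seen ones, 3.22% of those and 9.43% of the 106. Of the 106, 51 were among the tested transcripts.

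The summed level of the 106 transcripts was higher in the nuclear library at both stages, and more so at 1000-cell, but this order depended on how the set was chosen. The summed level was 3283 CPM nuclear (95% Wilson interval 3243 to 3324, counting error only) and 543 CPM cytosolic (529 to 556) at 1000-cell. At 256-cell it was 744 CPM nuclear (724 to 765) and 308 CPM cytosolic (297 to 319). The median transcript had 4.44 and 0.341 CPM at 1000-cell, against 0.785 and 0.318 CPM at 256-cell. The summed nuclear level was thus 4.41-fold higher at 1000-cell and the cytosolic level 1.76-fold higher. The cytosolic medians were near the level of 3 counts, which was 0.256 CPM at 1000-cell and 0.318 CPM at 256-cell. In the cytosolic library 41 of the 106 were at 0 counts at 1000-cell, against 46 at 256-cell. These medians therefore do not show whether the cytosolic level of a typical transcript changed. The nuclear/cytosolic ratio of the sums was 6.05 at 1000-cell, against 2.42 at 256-cell. With 100 counts required in either dome library (249 transcripts) it was 1.18 at 1000-cell, against 0.582 at 256-cell, so that the sum was then lower in the nuclear library at 256-cell. With the shield libraries in place of dome (181 transcripts) it was 2.69 at 1000-cell, against 4.41 at 256-cell, the opposite order of the stages.

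Taken one by one, 77 of the 106 had a nuclear level at 1000-cell at least 2-fold above that at 256-cell (72.6%), beside 11.3% of all tested transcripts, and 6 were 2-fold lower. In the cytosolic libraries 20 were 2-fold higher (18.9%), beside 10.2%, and 18 were 2-fold lower, so that higher and lower transcripts were about equal in number there. Both fractions were 2-fold higher for 15, the nuclear alone for 62 and the cytosolic alone for 5. The cytosolic library held 39 of the 106 as seen at 1000-cell and 40 at 256-cell. A transcript at 0 counts at both stages cannot pass 2-fold, so the cytosolic numbers and the 62 rest in part on counts near the floor. Between the fractions at 1000-cell, 82 of 106 were 2-fold higher in the nuclear library (77.4%), beside 11.1% of tested transcripts, and 3 were 2-fold lower, beside 7.82%. At 256-cell 42 were 2-fold higher in the nuclear library (39.6%), beside 11.2%, and 14 were 2-fold lower, beside 7.7%. These differences were not tested, as each fraction and stage had 1 library. The choice of the 106 favours a higher level at 1000-cell than at 256-cell, and the tested transcripts beside them were not chosen to rise.

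The tested transcripts are more abundant than most of the 106, of which 55 did not pass the filter, and transcripts with low counts are past 2-fold more often. The 106 were therefore also set beside the other transcripts of the whole table with a like mean count over the 4 libraries, which left out 15 of them with a mean under 1. With a mean from 1 to under 10 counts, the nuclear level was 2-fold or more higher at 1000-cell for 24 of 30 (80%), beside 28.5% of the others. With 10 to under 50 counts it was so for 22 of 28 (78.6%), beside 20.7%, with 50 to under 200 for 20 of 23 (87.0%), beside 13.4%, and with 200 or more for 9 of 10 (90%), beside 4.31%. The cytosolic level was 2-fold or more higher for 4 of 30 (13.3%), beside 20.8%, 10 of 28 (35.7%), beside 19.7%, 4 of 23 (17.4%), beside 12%, and 2 of 10 (20%), beside 4.23%. The nuclear share thus stood above that of the other transcripts in all 4 ranges. The cytosolic share was below theirs in the lowest range and above it in the other 3, by a few transcripts each. The other transcripts were not chosen to rise by dome, so how much of a difference came from the choice cannot be told.

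**Figure D4:**
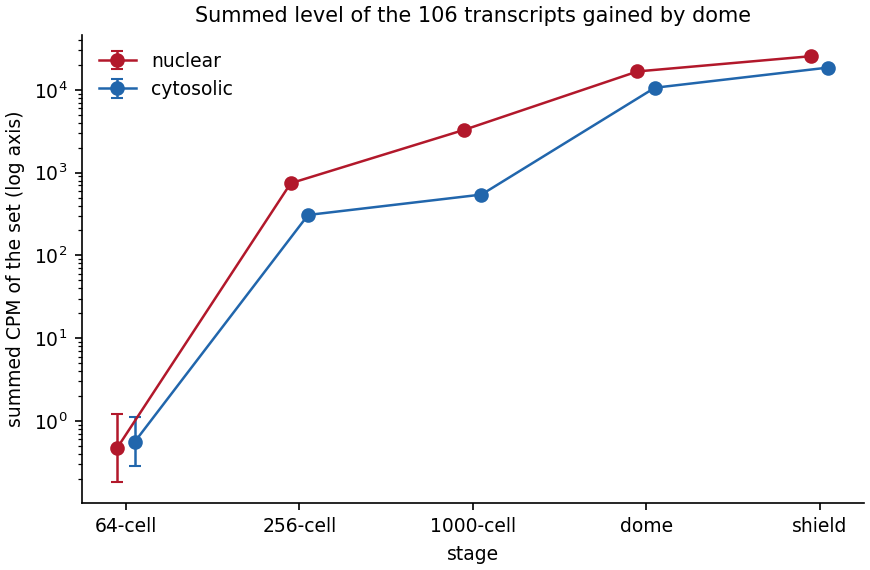
Summed CPM of the 106 transcripts gained by dome (vertical log axis) at each stage, nuclear libraries in red and cytosolic libraries in blue. Bars are 95% Wilson intervals of the share of counts, which cover counting error only and are hidden by most points. The fractions lie farthest apart at 1000-cell, with 3283 CPM nuclear and 543 CPM cytosolic.

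The transcripts with the highest nuclear counts at 1000-cell show the levels behind the sum. They were picked by that count, which favours a high nuclear value in each comparison, so their values are a description. The first had 4639 nuclear and 546 cytosolic counts at 1000-cell, against 953 and 365 at 256-cell. It had 0 counts in both 64-cell libraries, and 37760 and 16338 at dome. The next had 3154 and 485 counts at 1000-cell, against 724 and 223 at 256-cell. The third had 2226 and 248 at 1000-cell, against 601 and 160 at 256-cell. The nuclear count stood well above the cytosolic one in each, although the nuclear library was the smaller. The fourth, with 2018 nuclear and 303 cytosolic counts at 1000-cell against 237 and 67 at 256-cell, had the smallest unadjusted p-value of the first 10, 0.0119 (log2 fold change 2.36 with an SE of 0.38, and an adjusted p-value of 0.525 in edgeR).

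The first 10 by nuclear count held 69.8% of the nuclear counts of the set at 1000-cell. All 10 had a higher CPM value in the nuclear than in the cytosolic library at 1000-cell, by 4.86-fold or more, and 9 of them at 256-cell. The nuclear level at 1000-cell was also at least 2-fold above that at 256-cell for all 10, and the cytosolic level for 1 of them. The choice by nuclear count favours these directions, and they are no support for the pattern of the set.

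Many of the 106 were already seen at 256-cell. The first stage with 10 or more counts was 256-cell for 54 transcripts, with 30 in both libraries, 14 nuclear alone and 10 cytosolic alone. It was 1000-cell for 25, of which 22 reached 10 counts in the nuclear library alone, 2 in the cytosolic library alone and 1 in both. The other 27 were first seen at dome, where the choice of the set required counts in both libraries. Of the 25 that first reached 10 counts at 1000-cell, 22 thus did so in the nuclear library alone. This rule allows 3 to 9 counts at 256-cell, and by the rule of 2 or fewer only 10 of the 106 were newly seen. The same count over all transcripts was not made, so 22 of 25 cannot be set beside the newly seen classes above.

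The 22 had low counts at this point. In the 1000-cell nuclear library they ran from 10 to 194 counts with a median of 22, and in the cytosolic library from 0 to 6 with a median of 1. At 256-cell they had medians of 3 nuclear and 0 cytosolic counts. At dome their medians were 515 nuclear and 253.5 cytosolic counts. The highest of them at dome, with 18163 nuclear and 6776 cytosolic counts, had 59 and 6 counts at 1000-cell, against 0 and 0 at 256-cell.

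The earlier group carried nearly all of the summed nuclear level at 1000-cell, and a smaller part of the cytosolic one. The 54 transcripts first seen at 256-cell had a summed level of 3150 CPM nuclear and 380 CPM cytosolic at 1000-cell, against 732 and 302 CPM at 256-cell. At 1000-cell the nuclear CPM value was the higher one for 49 of the 54 and the cytosolic one for 2. The 27 first seen at dome had 11.2 CPM nuclear and 1.62 CPM cytosolic at 1000-cell, against 2.28 and 1.48 CPM at 256-cell. Even below the count used to call a transcript seen, the summed nuclear level was the higher one at 1000-cell. At 256-cell the counting interval of the ratio of the fractions, 0.752 to 3.15, included 1.

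A few of the 106 went the other way at 1000-cell. The nuclear CPM value was the higher one for 84 and the cytosolic one for 5, and 17 were at 0 in both libraries. One of the 5 had 0 nuclear and 1587 cytosolic counts at 1000-cell, against 0 and 0 at 256-cell, out of 6356 cytosolic counts of the set at 1000-cell. Because of it, the 25 transcripts first seen at 1000-cell summed to 121 CPM nuclear and 161 CPM cytosolic, although 23 of the 25 were higher in the nuclear library. The nuclear/cytosolic ratio of the summed CPM of all 106 at 1000-cell, 6.05, came to 8.79 without the transcript with the highest count in each of the 4 libraries, 3 transcripts in all. Without the 11 transcripts that had 100 or more counts in one fraction and 0 in the other at some stage it was 10.5. Both removals drew on 1000-cell counts and took out the transcript with 1587 cytosolic counts, which favours a higher ratio. The sum was thus also higher in the nuclear library without these transcripts, but the rise of the ratio is no further support. In the wider set of 249 transcripts, 53.4% were 2-fold or more higher in nuclear RNA at 1000-cell than at 256-cell, and 14.5% in cytosolic RNA.

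**Figure D5:**
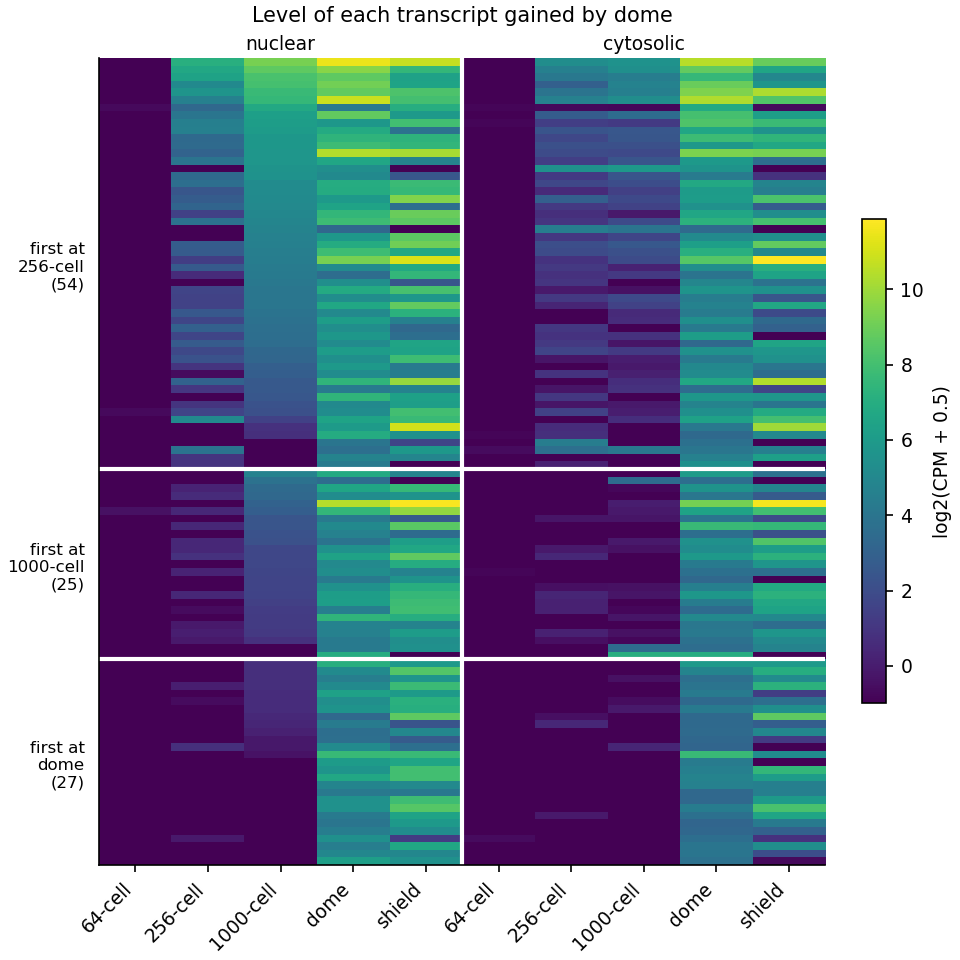
Log2(CPM + 0.5) of each of the 106 transcripts gained by dome (rows) in the 5 nuclear and 5 cytosolic libraries (columns), grouped by the first stage with 10 or more counts in a library (54, 25 and 27 transcripts) and ordered within a group by the 1000-cell nuclear level. In the 1000-cell columns the nuclear side is lighter than the cytosolic side for most rows of the first 2 groups.

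After 1000-cell the cytosolic level of the set came closer to the nuclear one. The nuclear/cytosolic ratio of the summed CPM was 2.42 at 256-cell (95% interval from counting error 2.31 to 2.53), 6.05 at 1000-cell (5.89 to 6.22), 1.57 at dome (1.56 to 1.59) and 1.37 at shield (1.36 to 1.38). After TMM scaling over all 10 libraries the ratio was 2.49, 6.25, 1.58 and 0.984, so at shield its side of 1 depends on the scaling. From 1000-cell to dome the summed level was 5.08-fold higher at dome in nuclear and 19.5-fold higher in cytosolic RNA. The dome levels are high in both fractions by the choice of the set, and are given only as a description. A like course was also found outside the set. One abundant transcript, with 23900 nuclear and 28759 cytosolic counts at 64-cell, had 6134 and 1855 CPM at 256-cell. It had 10696.5 and 2026 CPM at 1000-cell, and 2860 and 1910 CPM at dome. Another had 4968 and 2079, 9669 and 1814, and 894 and 843 CPM at these stages. Others did not, such as one with 7410 and 9036 CPM at 1000-cell. How common this course was among all transcripts was not tested.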

How the data were processed

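Stranded total RNA libraries, depleted of ribosomal RNA, were made from nuclear and cytosolic fractions of pooled embryos, per the labels' protocols. The authors deposited whole-number counts per Ensembl transcript. The submitters' processing notes list Trimmomatic 0.27, STAR 2.6.0a, StringTie and the genome build Zv9, without their roles. The annotation release, the use of strand and the division of reads among transcripts of a gene are not given in the sources used here. Columns were matched to libraries by stage and fraction, and 0 per-sample columns were left over.

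Transcripts with 10 or more counts in 2 or more of the 4 libraries were tested with edgeR 4.0.16 in R 4.3.3 (glmQLFit and glmQLFTest, TMM scaling, stage plus fraction), with Benjamini-Hochberg adjustment over all 7444 and a threshold of 0.05. The procedure was run on simulated counts with the same mean level and the same change in both fractions. These do not show how it does where the fractions differ. The SE is the log2 fold change divided by the square root of F. CPM values use library totals unless TMM is named. Thinning drew counts without replacement. DESeq2 1.42.0 and other settings were alternatives. Intervals and floors cover counting error only. At most 2 IDs per direction are named: of newly and no longer seen transcripts, the most abundant of the nuclear-only and of the both-fractions class. The members and rules were chosen with earlier results of these data known. Python 3.11.15, NumPy 2.4.6, pandas 2.3.3 and SciPy 1.17.1 were used.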

Additional observations from a re-analysis of the deposited data

How the results depend on the processing

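The count of 0 calls in edgeR stayed at 0 with DESeq2 size factors, library totals, no filter and a mean of 50 or more counts. It was 174 with DESeq2, 1 without the fraction block, and 2 with all 10 libraries, 1 of them ENSDART00000087247 (adjusted p-value 0.00621). With 1 of the 4 libraries left out of that last fit it was 0 to 0. With a mean of 50 or more counts, the transcripts past 2-fold numbered 402 higher and 358 lower in the nuclear, 356 and 354 in the cytosolic, and 117 and 114 in both fractions, from fewer transcripts tested. Newly seen nuclear-only, cytosolic-only and shared transcripts numbered 234, 196 and 131 when seen meant 5 counts, and 43, 59 and 37 when it meant 20. When not seen covered 64-cell too, the last 2 were 44 and 12. The share of cytosolic-only transcripts seen in the nuclear dome library was 34% at 20 counts and 32% in thinned libraries.

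The alternatives for the set gained by dome were chosen after seeing the data. The 1000-cell nuclear/cytosolic ratio was 6.25 with TMM scaling, 1.18 with either dome library (0.582 at 256-cell), 2.69 with shield in place of dome (4.41 at 256-cell, the higher of the 2), 8.79 without the highest transcripts and 10.5 without transcripts at 0 in one fraction beside 100 or more in the other. The share 2-fold higher in the nuclear library at 1000-cell was 89.5% at 500 dome counts, 53.4% with either dome library and 39.8% with shield in place of dome. In the cytosolic library this share was 18.4%, 14.5% and 13.8% under the same settings. The number first seen in the 1000-cell nuclear library alone was 43 at 50 dome counts, 6 at 500 and 47 with either library. In the 1000-cell cytosolic library alone it was 2, 1 and 10 under the same settings. The causes were not tested. Many newly seen transcripts lay near the cutoff of 10 counts, with 142 of the 311 under 20 counts in the library where each was higher.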

Other observations

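Transcripts with 100 or more counts in one fraction and 0 in the other occurred at each stage. At 1000-cell 37 had their counts in nuclear and 57 in cytosolic RNA, against 33 and 41 at 256-cell, or 1.89% and 1.59% of the transcripts with 100 or more counts in either library. At 64-cell, dome and shield the share was 1.80%, 1.28% and 2.59%. Counts of 1000 or more in 1 of the 4 libraries beside 2 or fewer in the other 3 were found for 1 nuclear and 7 cytosolic transcripts at 1000-cell, against 1 and 2 at 256-cell.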
